A study of Mus musculus with 8 samples.

Results

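The genes described here are 9 genes of vitamin A (retinoid) metabolism and signalling: the uptake receptor Stra6, the retinol dehydrogenase Rdh10, the retinal dehydrogenases Aldh1a1 and Aldh1a3, the retinoic acid hydroxylase Cyp26b1, the binding protein Crabp2 and the retinoic acid receptors Rara, Rarb and Rarg. They were taken by name, through the probe sets that the platform annotation gives to each. In all, 8 of the 9 had a single-gene probe set, 11 probe sets together out of 45037, and 7 of these genes passed the filter on low values, among 13935 genes tested. Rarb had no probe set under its name in the annotation used here, so its expression was not analysed. Aldh1a1 had 1 probe set, which was too dim to pass.

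The arrays measured RNA from mouse skin tumour cells sorted for the epithelial surface protein Epcam, on 8 arrays in 4 groups of 2. The groups were control papilloma (genotype NR2F2 WT), papilloma overexpressing NR2F2 (gain of function, GOF), control carcinoma (NR2F2 WT, Cre-negative) and squamous cell carcinoma with the genotype K5CreER;NR2F2fl/fl (labelled LOF and KO, here KO), in which a Cre recombinase driven by the keratin 5 promoter can remove both floxed alleles. NR2F2, also called COUP-TFII, belongs to the orphan nuclear receptors, which have no settled natural ligand. The promoter that drives the overexpressed NR2F2, the ages of the mice and the animals behind the 2 arrays of each group are not given in the sources used here. P-values therefore reflect array-to-array spread alone, and that spread may be technical.

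Retinol enters cells from its carrier in blood and is oxidised to retinal, mainly by RDH10, and then irreversibly to retinoic acid by the ALDH1A enzymes. CRABP2 hands retinoic acid to the nuclear receptors RARA, RARB and RARG, which bind DNA together with the RXR receptors, and CYP26 enzymes break it down. In skin, retinoic acid restrains cornification of keratinocytes and favours a mucosal type of epithelium, and NR2F2 is known to bind the same kind of repeated DNA elements and to pair with RXR receptors.

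A DNA element through which this pathway is read out is shown here because it stands at some of the genes that retinoic acid is known to switch on. Of the 9 genes, 6 had a promoter in the RefSeq table of build GRCm38.p6, 14 promoters together, each running from 250 bases before to 50 bases after a gene start. Promoters of Rdh10, Aldh1a3 and Crabp2 were not analysed here. Direct repeats of GGTCA or GTTCA, the last 5 letters of a half-site, were searched on both strands, with gaps of 5, 2 or 1 bases between the half-sites of 6 bases (DR5, DR2 and DR1), in any mixture of both half-sites. A DR5 match stood in 1 of the 14 promoters, that of Rarb, and in 0.247% of all 32851 promoters of the table. No DR2 or DR1 match stood in the 14, against 0.399% and 0.402% of all promoters. Among 71 promoters of other retinoid pathway genes, the DR5 pattern was found in that of Cyp26a1, the retinoic acid hydroxylase gene that is a textbook retinoic acid target, and the DR1 pattern in that of Bco1, which encodes the enzyme that splits carotene into retinal. The matches are printed in the direction of each gene, with the repeat in capitals, from chr14:16575493-16575548 (Rarb, minus strand) and chr19:37697756-37697811 (Cyp26a1, plus strand).
Rarb: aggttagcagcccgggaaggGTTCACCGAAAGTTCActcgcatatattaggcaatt
Cyp26a1: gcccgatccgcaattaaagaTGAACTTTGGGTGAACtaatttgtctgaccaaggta
The Rarb repeat matched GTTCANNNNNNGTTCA on the gene's own strand and began at -52 relative to the gene start. The Cyp26a1 repeat matched the same pattern on the opposite strand and began at -32. A match is only a description of letters. As for the readout of these elements, Rarb was not analysed, and Cyp26a1 lay below background on all 8 arrays, between 2.50 and 2.86 in papilloma and between 4.11 and 4.45 in carcinoma on the log2 scale.

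All values are log2 values made by the authors with the RMA algorithm, and the papilloma and carcinoma columns lie on different scales, with array medians of 3.12 to 3.16 and 5.08 to 5.15, so no level is compared between the tumour types. Levels of different probe sets are not set against each other either. Background was taken as the brightest of 44 controls that match no mouse gene; it ranged from 3.09 to 3.33 in papilloma and from 4.95 to 5.01 in carcinoma. Another 23 control probe sets, named as nonspecific by GC content, reached 4.51 to 5.65 and 6.92 to 7.34, so a value between the 2 limits may hold nonspecific signal. Nr2f2 followed the labels on its brightest probe set. This stood at 2.80 and 2.55 in control papilloma, 11.43 and 11.47 in GOF papilloma, 7.93 and 8.14 in control carcinoma and 4.77 and 5.0 in KO carcinoma, where replicate 1 lay below background. Its other probe sets differed by only 0.96, 0.26 and -0.04 in GOF papilloma, and by -3.07, -1.61 and -0.32 in KO carcinoma. The last of them lay below background on all 8 arrays, and the one at 0.26 on every papilloma array. The 10 keratinocyte markers, Epcam, Krt5 and Krt14 among them, were above background on all 8 arrays.

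**Figure D1:**
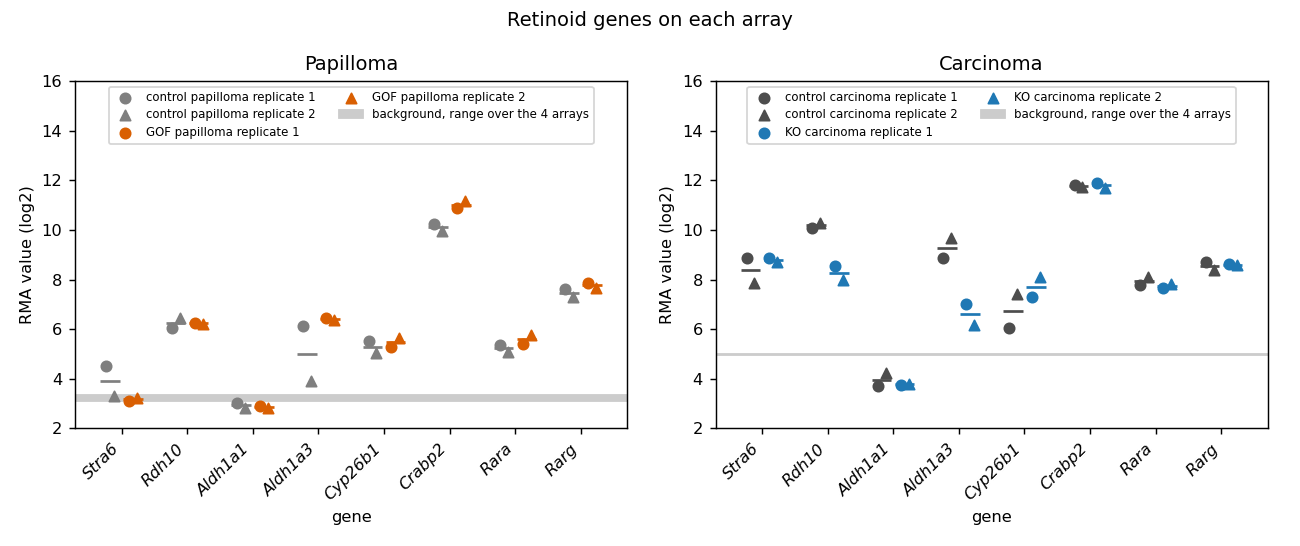
RMA value (log2, vertical axis) of the 8 retinoid genes with a probe set, on each papilloma array (left) and each carcinoma array (right), with points for single arrays, bars for group means and a grey band for background. Rdh10 and Aldh1a3 sit lower in both KO carcinoma arrays than in both controls, Crabp2 sits higher in both GOF papilloma arrays, and Aldh1a1 lies below background throughout.

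In KO carcinoma, the 2 enzymes that make retinoic acid step by step, Rdh10 and Aldh1a3, stood lower than in the controls, by 3.79-fold and 6.43-fold, without passing the adjusted threshold. The receptors Rara and Rarg and the carrier Crabp2 differed by 1.15-fold or less there. In GOF papilloma, Crabp2 stood 1.87-fold higher and Aldh1a3 2.64-fold higher, also without passing, and Rdh10 differed by -0.01 on the log2 scale. By limma's adjusted threshold of 0.05, 0 of the 7 genes were called in either comparison, against 1.21% of all genes in GOF papilloma and 0.0144% in KO carcinoma. At an unadjusted limma p under 0.05, 1 of the 7 (Crabp2) differed in GOF papilloma and 2 of the 7 (Rdh10 and Aldh1a3, both lower) in KO carcinoma, against 16.4% and 13.8% of all genes, 5.44% of them lower in KO carcinoma. With groups of 2 the smallest p of an exact permutation test is 0.333, so none was run on single genes.

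Rdh10 encodes the enzyme that oxidises retinol to retinal, the first and usually limiting step of retinoic acid synthesis. Its single probe set read 10.09 and 10.28 in control carcinoma and 8.56 and 7.97 in KO carcinoma. Both KO arrays were lower than both control arrays, with differences of -2.31 to -1.53 over the 4 array pairs, and the groups did not overlap. The log2 difference was -1.92 (SE 0.23, n = 2 against 2, limma adjusted p = 0.103; 95% interval -2.48 to -1.37), the 12th smallest p of 13935 genes. Rdh10 was proposed with an earlier result of this comparison in view, so its p-values, interval and rank describe it and do not test it. With a trended and robust variance prior the difference passed (limma adjusted p = 0.0419). Without any 1 array the difference ran from -2.22 to -1.63.

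In papilloma the same probe set read 6.05 and 6.44 in the controls against 6.25 and 6.22 in the GOF arrays. The GOF values lay between the control values. The difference was -0.01 (SE 0.23, limma adjusted p = 0.996), with a 95% interval from -0.56 to 0.55. The lower level of Rdh10 was thus measured where Nr2f2 was removed and not where it was added. The difference between the GOF and KO effects was 1.91 (SE 0.33, limma adjusted p = 0.0876), which did not pass. For every gene such a difference sets changes measured on different scales against each other, so its size is uncertain. By this test of the difference 0 of the 7 genes passed, against 0.0789% of all genes, and 3 (Rdh10, Aldh1a3 and Crabp2) had an unadjusted limma p under 0.05, against 14.2% of all genes.

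Aldh1a3 encodes an enzyme that converts retinal to retinoic acid. It was read by 3 probe sets. On the brightest, which stands for the gene, control carcinoma read 8.86 and 9.69, and KO carcinoma 7.0 and 6.18. On the second, the controls read 8.44 and 8.88 and the KO arrays 7.45 and 5.95. On the third, the controls read 8.91 and 9.71 and the KO arrays 6.95 and 5.53. Every KO value was below both control values on each probe set, and KO replicate 2 was the lowest array on all 3. The log2 fold changes were -2.68, -1.96 and -3.07. On the brightest probe set the SE was 0.70 (limma adjusted p = 0.193; 95% interval -4.35 to -1.02), and on the third, fitted among all probe sets, it was 0.50 (limma adjusted p = 0.128). With the mean of the 3 probe sets the difference was -2.57 (SE 0.44, limma adjusted p = 0.100). On the brightest and the third probe set, both KO arrays lay below the highest control set by GC content, so the KO level is uncertain.

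In papilloma the 3 Aldh1a3 probe sets were all higher in GOF than in control arrays, in each of the 4 array pairs. The brightest read 6.12 and 3.89 in the controls against 6.43 and 6.37 in GOF. The second read 3.57 and 4.79 against 6.20 and 5.61, and the third 4.84 and 4.16 against 5.79 and 5.83. The 2 GOF arrays lay close together on the brightest and the third probe set and further apart on the second. The control arrays differed by over 2 log2 units on the brightest probe set, and which control array was lower depended on the probe set. The log2 fold changes were 1.40 (SE 0.70, limma adjusted p = 0.384), 1.72 and 1.31. For the brightest probe set the value was 2.51 without control papilloma replicate 1 (adjusted p = 0.0849) and 0.29 without control replicate 2 (adjusted p = 0.878). Of the 7 tested genes, Aldh1a3 had the widest difference between the GOF and KO effects, with a positive value where NR2F2 was added and a negative one where Nr2f2 was removed. The difference between those effects, measured on different scales, was 4.08 (SE 0.99, limma adjusted p = 0.159), which did not pass.

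Aldh1a1 encodes the other retinal dehydrogenase of the list. Its probe set read between 2.82 and 3.02 in papilloma and between 3.73 and 4.21 in carcinoma, below background on all 8. No fold is given. Whether Aldh1a1 is made in these cells cannot be read from this probe set.

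When each of the 4 array pairs had to differ one way by 1.5-fold or more, 2 of the 7 genes were lower in KO carcinoma, Rdh10 and Aldh1a3, and 0 higher, against 1.48% and 1.42% of all genes. In GOF papilloma 1 of the 7 was higher by this rule, Crabp2, and 0 lower, against 3.90% and 2.19% of all genes. Groups that merely did not overlap were common among all genes. In GOF papilloma they were found for 5 of the 7, 4 higher and 1 (Stra6) lower, against 48.5% of all genes (27.3% higher, 21.3% lower). In KO carcinoma they were found for 2 of the 7, both lower, against 43.0% of all genes (23.8% higher, 19.1% lower). The genes were proposed with earlier results in view, Rdh10 in KO carcinoma among them, so these counts describe the genes and do not test them.

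**Figure D2:**
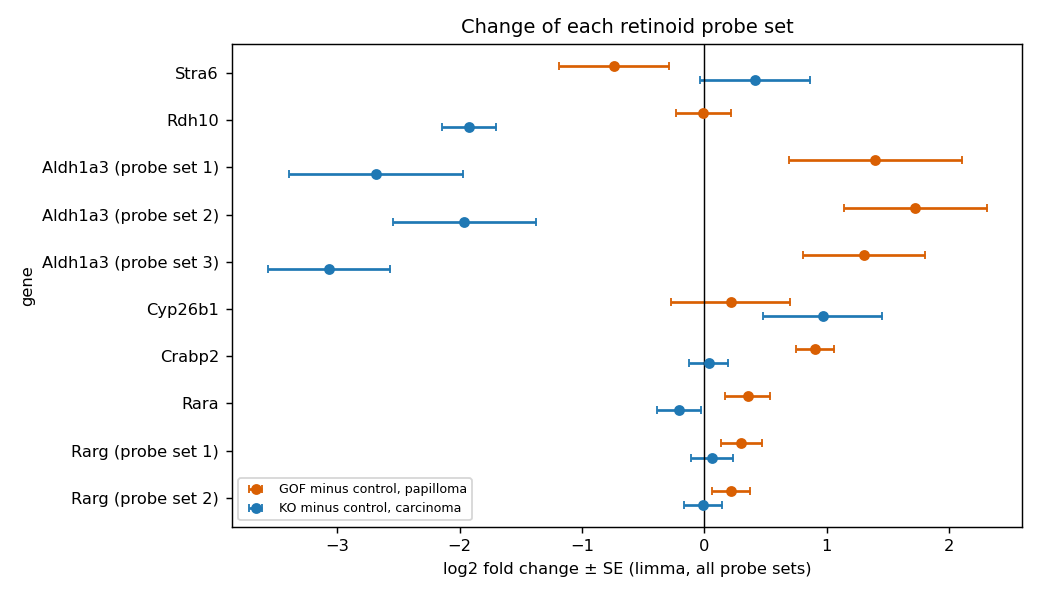
Log2 fold change ± SE (horizontal axis, limma over all probe sets) of the retinoid probe sets other than that of Aldh1a1, GOF minus control in papilloma in orange and KO minus control in carcinoma in blue. The 3 Aldh1a3 probe sets lie between 1.31 and 1.72 in papilloma and between -3.07 and -1.96 in carcinoma, whereas Rdh10 lies at -1.92 in carcinoma and at -0.01 in papilloma.

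Cyp26b1 encodes an enzyme that breaks down retinoic acid. In carcinoma it read 6.03 and 7.40 in the controls against 7.28 and 8.09 in the KO arrays. Control replicate 2 was above KO replicate 1, so the groups overlapped. The log2 difference was 0.97 (SE 0.48, limma adjusted p = 0.444; 95% interval -0.18 to 2.12), and it was 0.28 without control carcinoma replicate 1 and 1.66 without control replicate 2. In papilloma Cyp26b1 read 5.50 and 5.02 in the controls against 5.29 and 5.66 in GOF, a difference of 0.22 (SE 0.48, limma adjusted p = 0.893) between overlapping groups. No direction can be given for Cyp26b1 in papilloma, where it turned to -0.03 without control replicate 2.

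Stra6 encodes the membrane receptor that takes up retinol, and it is named for its stimulation by retinoic acid. In carcinoma it read 8.87 and 7.87 in the controls against 8.88 and 8.70 in the KO arrays. These groups overlapped. The difference was 0.41 (SE 0.44, limma adjusted p = 0.782), and -0.09 without control carcinoma replicate 2, the lowest array. In papilloma it read 4.50 and 3.31 in the controls against 3.12 and 3.21 in GOF. Control replicate 1 stood apart there, and the other 3 arrays lay close to background, GOF replicate 1 below it. The log2 difference was -0.74 (SE 0.44, limma adjusted p = 0.474), and -0.15 without control replicate 1.

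Crabp2 encodes the cellular protein that carries retinoic acid to its receptors in the nucleus. In papilloma it read 10.24 and 9.97 in the controls against 10.86 and 11.16 in GOF. Both GOF arrays were above both controls, by 0.62 to 1.20 over the 4 pairs. The log2 difference was 0.91 (SE 0.17, limma adjusted p = 0.0655; 95% interval 0.49 to 1.32). It passed with a trended and robust variance prior (limma adjusted p = 0.0247) and in none of the other alternatives. In carcinoma the controls read 11.83 and 11.71 and the KO arrays 11.91 and 11.70, a difference of 0.04 (SE 0.17, limma adjusted p = 0.969; 95% interval -0.38 to 0.45) between overlapping groups. The difference between the effects, 0.87 (SE 0.24, limma adjusted p = 0.213), did not pass.

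Rara and Rarg encode the retinoic acid receptors, of which RARG is the main form in epidermis. Rara read 7.77 and 8.09 in control carcinoma and 7.64 and 7.80 in KO carcinoma, in overlapping groups, a difference of -0.21 (SE 0.20, limma adjusted p = 0.742; 95% interval -0.68 to 0.26). Rarg read 8.70 and 8.38 in the controls against 8.62 and 8.59 in the KO arrays, a difference of 0.06 (SE 0.18, limma adjusted p = 0.947; 95% interval -0.37 to 0.50). The KO values of Rarg lay between the control values. A fall of either receptor as large as that measured for Rdh10 lies outside these intervals.

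In papilloma Rara read 5.38 and 5.08 in the controls against 5.41 and 5.76 in GOF, a difference of 0.35 (SE 0.20, limma adjusted p = 0.437). Rarg read 7.64 and 7.29 against 7.87 and 7.66, a difference of 0.30 (SE 0.18, limma adjusted p = 0.474), and its second probe set differed by 0.22. For both receptors the GOF values were just above the control values, by 0.03 for Rara in the closest pair, and neither passed.

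The other genes of the pathway were taken from 8 lists. Of 76 genes, 66 had a single-gene probe set and 55 were tested. By limma's adjusted threshold 0 of the 55 passed in either comparison, and at an unadjusted p under 0.05 there were 7 in GOF papilloma (5 higher, 2 lower) and 4 in KO carcinoma (1 higher, 3 lower). Over all genes 16.4% and 13.8% did so, larger shares than in the pathway lists. The median log2 fold change of the 55 was -0.05 in GOF papilloma, where all genes had 0.02, and -0.14 in KO carcinoma, where all genes had 0.01. In KO carcinoma 14 of the 55 had positive values and in GOF papilloma 24. Of the 55, 37 to 42 lay above background on each papilloma array and 43 to 48 on each carcinoma array. These counts of signs thus include genes below background.

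Among the 6 carriers tested, the retinol-binding protein gene Rbp2 had the largest log2 difference in GOF papilloma. It read 6.73 and 6.92 in the controls against 8.04 and 8.29 in GOF (1.34, SE 0.29, limma adjusted p = 0.0849). In KO carcinoma Rbp2 differed by 0.28, and Fabp5, which carries retinoic acid to another receptor, by 0.46 (adjusted p = 0.505). The second cellular retinoic acid binding protein gene, Crabp1, read 9.05 and 7.18 against 9.30 and 8.68 in papilloma and 6.53 and 7.96 against 6.33 and 6.99 in carcinoma. Crabp1 therefore overlapped between the groups in both tumour types. Of the 4 ester storage genes, Lrat, whose enzyme stores retinol as esters, was below background on all 8 arrays but control papilloma replicate 2, so no fold is given. Lipe, a lipase that can free retinol, differed by 0.42 in GOF papilloma and -0.33 in KO carcinoma (adjusted p = 0.219 and 0.381). Its other probe set differed by only 0.099 and 0.003. On every papilloma array the Lipe value lay below the highest control set by GC content.

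Of the 10 other oxidoreductases tested, the alcohol dehydrogenase gene Adh7, whose product oxidises retinol, had the widest difference in GOF papilloma. It read 5.89 and 7.28 in the controls against 4.62 and 4.74 in GOF, -1.90 (SE 0.50, limma adjusted p = 0.131). Rdh12, a retinal reductase gene, stood higher there by 1.22 (SE 0.38, adjusted p = 0.179), and Dhrs3, whose enzyme opposes RDH10 by reducing retinal, stood lower by 0.36 (adjusted p = 0.466). In KO carcinoma Rdh11, another retinal reductase gene, read 9.54 and 9.52 in the controls against 10.09 and 10.10 in the KO arrays (0.56, SE 0.15, limma adjusted p = 0.200). Rdh11 and Rdh10 thus differed in opposite directions there, without either passing. Also there, Rdh13 differed by 0.45 and Adh5 by 0.27. Of 4 other genes for forming retinal or retinoic acid, Aldh1a2 was above background on control carcinoma replicate 2 and on no other array.

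Of 8 partner receptors and coregulators tested, Nrip1, a coregulator that binds ligand-activated retinoic acid receptors, read 9.11 and 9.33 in control papilloma and 8.52 and 8.69 in GOF (-0.61, SE 0.21, limma adjusted p = 0.220), and Ncoa2, a coactivator, differed by -0.39 (adjusted p = 0.446). The RXR genes did not pass in either comparison, with Rxra at -0.01 in GOF papilloma and 0.04 in KO carcinoma, and Rxrb at 0.29 in KO carcinoma. Over its 3 probe sets Rxra ran from -0.465 to -0.007 in GOF papilloma and from -0.011 to 0.046 in KO carcinoma.

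Of 19 genes known to be induced by retinoic acid, 5 had positive values in KO carcinoma and 10 in GOF papilloma, with medians of -0.15 and 0.01. Of these 19, 16 or 17 lay above background on each carcinoma array and 11 to 13 on each papilloma array. The simple-epithelium keratin Krt19 read 7.07 and 8.62 in control carcinoma and 5.97 and 4.99 in the KO arrays (-2.36, SE 0.52, limma adjusted p = 0.156). Krt7, another keratin of simple epithelium, read 6.86 and 8.02 against 5.81 and 5.71 (-1.68, SE 0.34, limma adjusted p = 0.141). Both KO arrays were below both controls for each keratin, and control replicate 2 was the highest array. The transglutaminase gene Tgm2 differed by -1.41 (adjusted p = 0.314). For Krt19, Krt7 and Tgm2 both KO arrays lay below the highest control set by GC content. Control replicate 1 did so too for Krt7 and Tgm2, so the sizes of these differences are uncertain. Rarres1 was above background on control replicate 1 alone, at 6.89, and below it on control replicate 2 (4.35) and both KO arrays (3.89 and 4.06). Its difference thus rested on 1 array, and no fold is given. Krt4 and Krt13, the mucosal keratins of the same list, differed by 0.00 and 0.13, with control replicate 1 at 4.32 and 5.76 and control replicate 2 at 8.25 and 9.64.

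In GOF papilloma the same list held Gprc5a, a receptor gene first found as induced by retinoic acid, at 6.78 and 6.92 in the controls against 8.19 and 7.82 in GOF (1.16, SE 0.29, limma adjusted p = 0.116), and Tgm2 at 0.95 (adjusted p = 0.439). The other Tgm2 probe set differed by 0.24 there. For Tgm2 both control papilloma arrays and GOF replicate 1 lay below the highest control set by GC content. Of 3 tested keratinocyte genes known to be lowered by retinoic acid, the cornified envelope gene Lor stood higher there by 2.04 (SE 0.61, limma adjusted p = 0.169). The suprabasal keratins Krt10 and Krt1 stood lower by 0.42 and 0.61 (adjusted p = 0.420 and 0.732). The pathway genes thus gave no shared direction in GOF papilloma. In KO carcinoma 0 of these 3 genes had positive values, with a median of -0.62, and none passed. Krt1 lay below background on both KO arrays and on control replicate 1, and read 6.55 on control replicate 2. Lor read 4.92, below background, on control replicate 1 and 6.76 on control replicate 2, against 5.03 and 5.42 in the KO arrays. The negative values of Krt1 and Lor thus rested on control replicate 2. Most of the genes that retinoic acid induces had negative values in KO carcinoma as well, without passing.

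**Figure D3:**
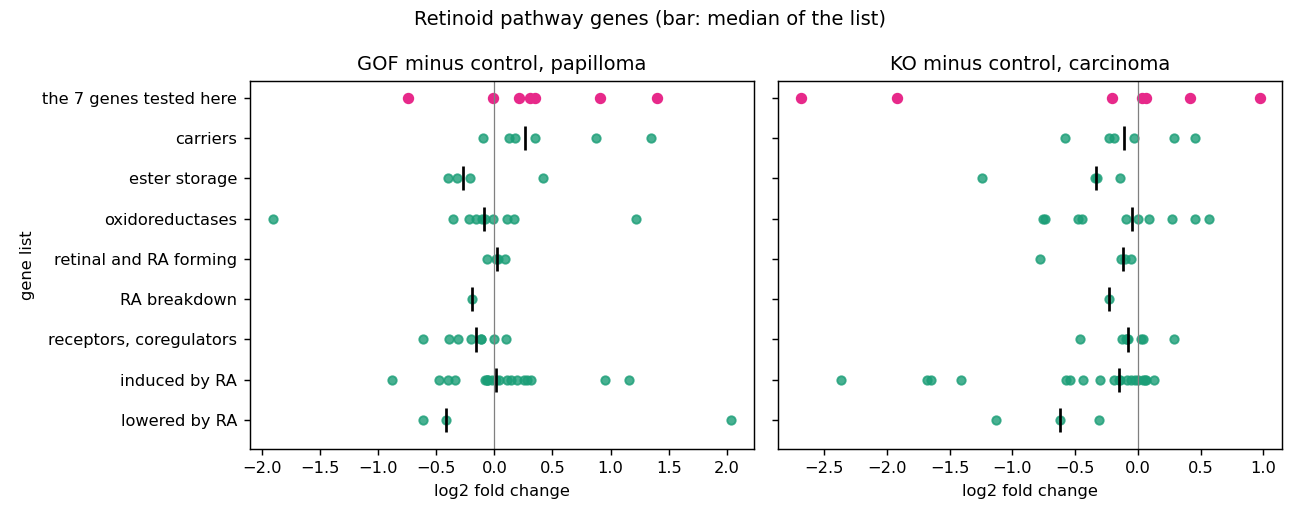
Log2 fold change (horizontal axis) of each tested gene in the 8 retinoid pathway lists (green, a black bar for the median of the list) and of the 7 tested retinoid genes (pink), GOF minus control in papilloma on the left and KO minus control in carcinoma on the right. RA stands for retinoic acid, and genes below background in a group, such as Lrat and Rarres1, are plotted at their fitted values. In carcinoma Rdh10 and Aldh1a3 lie far to the left, at -1.92 and -2.68, beside Krt19 at -2.36 among the induced genes.

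Several marker lists for cells other than keratinocytes differed between GOF and control papilloma. By limma's adjusted threshold, 4 of 12 macrophage and monocyte markers, 5 of 9 endothelial markers and 3 of 6 Langerhans and dendritic markers rose. Of all genes, 1.21% passed in either direction. The mean of the macrophage markers was 3.15 and 3.14 in control papilloma and 5.69 and 6.70 in GOF, with 5 and 7 of the 12 above background in the controls and 12 of 12 on both GOF arrays. The mean of the endothelial markers was 3.49 and 3.37 against 5.31 and 5.46, and that of the Langerhans and dendritic markers was 4.66 and 4.94 against 6.62 and 7.10. None of 9 fibroblast markers passed, and their mean was 8.69 and 7.50 in the controls against 8.71 and 9.08 in GOF. Control replicate 2, the lowest of these, was the lower control array on the brightest and the third Aldh1a3 probe set and the higher one on the second. T and NK markers were above background for 0 or 1 of 6 genes per papilloma array, Epcam fell by 1.53 (limma adjusted p = 0.0372), and the mean of the 10 keratinocyte markers was 10.74 and 10.78 against 10.57 and 10.48. The part of these other cells in the Crabp2 and Aldh1a3 differences was not tested, and in sorted bulk RNA fewer cells of a type and less RNA per cell cannot be told apart.

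In carcinoma, 1 array, control replicate 2, carried more of these markers than the other 3. The fibroblast mean was 6.96 and 8.64 in the controls against 6.49 and 7.13 in the KO arrays, the macrophage mean 5.50 and 7.05 against 5.35 and 5.68, and the endothelial mean 5.30 and 6.11 against 5.06 and 5.18. No marker of these lists passed. With a median of 0.01 over all genes in KO carcinoma, all 9 fibroblast, 12 macrophage and 9 endothelial markers tested had negative values there. The lowest unadjusted p among them was that of Flt1, a VEGF receptor gene of endothelium, which read 7.05 and 7.19 in the controls against 5.88 and 6.14 in the KO arrays (-1.11, limma adjusted p = 0.110). Lyz2, a lysozyme gene of macrophages, read 6.20 and 7.36 against 4.82 and 5.50 (-1.62, limma adjusted p = 0.225). These 2 markers were named after their values had been seen. For both, the controls lay above both KO arrays, as for Rdh10, Aldh1a3 and 19.1% of all genes. Over the 3 probe sets of Flt1 the log2 fold changes ran from -1.11 to -0.43. For Flt1 and Lyz2, both KO arrays and 1 control array lay below the highest control set by GC content. Lyz2 also lay below background on KO replicate 1. Rdh10 and Aldh1a3 were highest on control replicate 2 as well, at 10.28 and 9.69, and read 10.09 and 8.86 on control replicate 1. Without control replicate 2 the differences were -1.83 for Rdh10 and -2.27 for Aldh1a3. The part of other cells in these differences was not tested. The keratinocyte means were 11.53, 11.40, 11.37 and 11.46, and Epcam differed by -0.10 (limma adjusted p = 0.927).

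**Figure D4:**
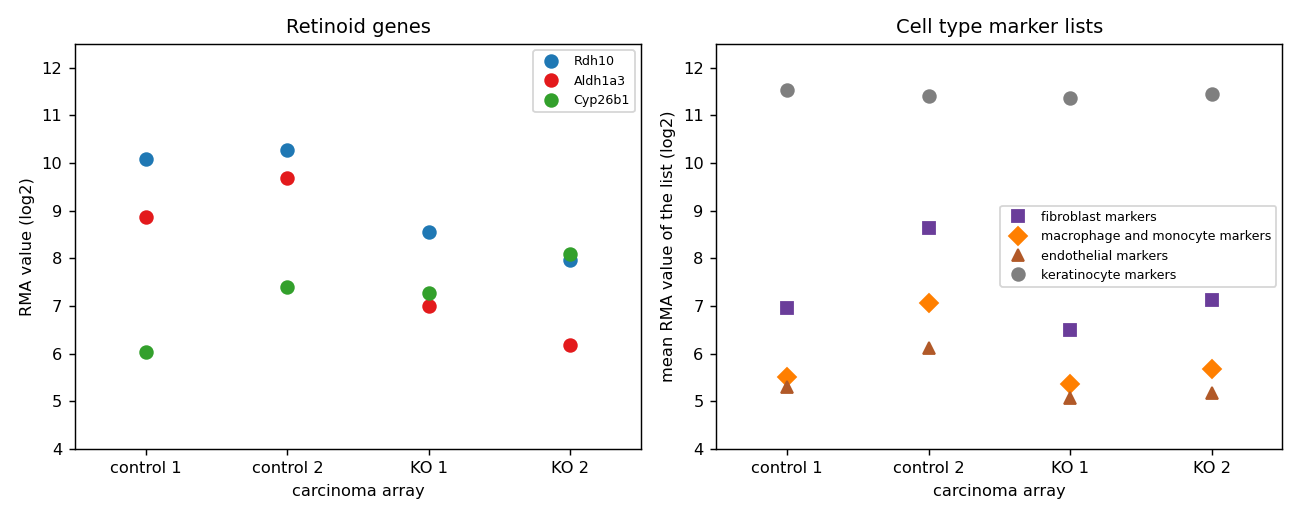
RMA value (log2) of Rdh10, Aldh1a3 and Cyp26b1 (left) and mean RMA value (log2) of 4 cell type marker lists (right) on each carcinoma array. The marker lists of fibroblasts, macrophages and endothelium are highest on control replicate 2, at 8.64, 7.05 and 6.11. Rdh10 and Aldh1a3 are also highest there, at 10.28 and 9.69, and lower on both KO arrays than on both controls.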

How the data were processed

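RNA of 8 samples was hybridised to Affymetrix mouse expression arrays, 1 array each. The authors deposited log2 values; per the labels, these came from RMA in the affy package, whose version is not given in the sources used here. Groups and replicate numbers came from the sample titles. Of 45141 probe sets, 104 were controls; of the others, 28898 had 1 gene symbol, 551 several and 15588 none, and 28689 were matched by Entrez number to RefSeq symbols. The filter asked for 2 or more of the 8 values of a probe set above 4.23, the median over the table, and the brightest remaining probe set with 1 gene symbol stood for its gene. This limit lies below the carcinoma background of 4.95 to 5.01. Genes below background could thus pass, and the shares of all genes include them. With the filter within each tumour type 9818 genes were tested. Limma 3.58.1 in R 4.3.3 was fitted to all 13935 genes with 1 mean per group and a shared residual spread (4 residual and 2.67 prior degrees of freedom), tested on simulated data first. P-values were adjusted by Benjamini-Hochberg over all genes, with a threshold of 0.05. Probe sets of the retinoid genes were fitted again among all 45037. Values are log2 per array, errors are standard errors (SE) and the number of arrays limits the precision. Promoters came from RefSeq, GRCm38.p6.

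The genes and lists were chosen with earlier results of these data known. All probe sets of the 9 genes were described; of the pathway lists, each gene past the threshold and the 6 with the lowest p in each direction; further genes of those lists, such as Crabp1, Aldh1a2, Rxra, Rxrb, Krt4 and Krt13, were added after their values had been seen. Alternatives were the filter, the probe set rule, the scaling, the variance prior, each tumour type alone, a replicate block and each array left out.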

Additional observations from a re-analysis of the deposited data

How the results depend on the processing

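Over the alternatives, Rdh10 in KO carcinoma ran from -2.35 to -1.63, Aldh1a3 there from -3.15 to -2.27, Crabp2 in GOF papilloma from 0.71 to 1.06, Aldh1a3 there from 0.29 to 2.51 and Cyp26b1 in KO carcinoma from 0.28 to 1.66. A trended and robust variance prior carried Rdh10 and Crabp2 past the threshold, and no other alternative moved a retinoid gene across it. Counts over all genes moved more. The main counts were 169 genes in GOF papilloma, 2 in KO carcinoma and 11 for the difference between the effects. With the replicate block they were 3, 0 and 3; the same-numbered arrays' deviations correlated at 0.05 in papilloma and 0.14 in carcinoma, which, with 2 pairs in each tumour type, does not settle whether the numbers pair the arrays. With the mean of probe sets the KO count was 0 and that of the difference 5; with each tumour type alone the KO count was 0; with the trended and robust prior these were 32 and 68. The count for the difference was 39 with the filter within each tumour type and 18 without _s_at and _x_at probe sets. Without any 1 array the counts ran from 1 to 297 in GOF papilloma, from 0 to 122 in KO carcinoma and from 1 to 274 for the difference; the highest KO count and the highest count for the difference came without control carcinoma replicate 1. A lone remaining array was assumed to vary like the other groups. The causes were not tested. Signals between background and the controls by GC content limit Aldh1a3 in KO carcinoma and control papilloma, Cyp26b1 in control carcinoma and GOF papilloma, Rara in GOF papilloma and Stra6 in papilloma.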

Other observations

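The pattern of Rdh10 over the 8 arrays, each value centred on the mean of its tumour type, was shared most closely by Cystm1 (Pearson r = 0.989), the serotonin transporter gene Slc6a4 (0.987), the ectonucleotidase gene Entpd3 (0.984), the serpin gene Serpinb6b (0.982) and the helicase gene Dhx40 (0.981). These are the highest of 13935 genes, a description with no test over 8 arrays that share a control group within each tumour type. Their log2 fold changes in KO carcinoma ran from -2.65 (Serpinb6b) to -0.49 (Dhx40), and in GOF papilloma from -0.09 to 0.19. Of the other retinoid genes, Aldh1a3 had the highest r to Rdh10 (0.722) and Cyp26b1 the lowest (-0.666). The genes closest to Crabp2 were Clasp1, a microtubule-binding protein gene (0.980), Ehbp1l1 (0.974), Hpcal1 (0.972), Ppp1r3e (0.972) and Camk2n2 (0.966), with log2 fold changes from 0.69 to 1.86 in GOF papilloma and from -0.17 to 0.17 in KO carcinoma.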
